A study of Mus musculus with 4 samples.

Results

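The Zic genes encode transcription factors with a block of C2H2 zinc fingers, related to those of the Gli and Glis proteins. Their expression was examined in the FNP (frontonasal prominence), from which the nose and snout form, in mouse embryos at E10.5 and the 29-somite stage. The members were the rows named Zic1, Zic2, Zic4 and Zic5, which were 4 of the 33708 rows of autosomal genes in the deposited table. The 4 embryos sequenced were of the FVB/NJ strain. There were 2 Smchd1+/+ embryos (WT, 1 female and 1 male by the labels) and 2 male embryos homozygous for MommeD43 (MD43), an ENU-induced missense allele that replaces an alanine by a glutamate in the extended ATPase domain of the chromatin silencing protein SMCHD1. The labels give no other allele and no treatment. Replicate 2 of WT and replicate 2 of MD43 shared a mother, which the other embryos did not. A column heading elsewhere in the study names WT replicate 2 as female. If so, sex and genotype cannot be told apart.

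In vertebrate embryos the Zic genes act in the dorsal neural tube and forebrain, in the neural crest and in the mesenchyme around the brain and eye. Zic2 is required for the forebrain to divide at the midline, and its loss causes holoprosencephaly in mice and humans. Zic1 and Zic4 lie head to head in the genome, as do Zic2 and Zic5, so that each pair is transcribed in divergent directions. Deletion of the human pair ZIC1 and ZIC4 has been linked to Dandy-Walker malformation of the cerebellum.

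The table gave 1 value per genotype, a log2 RPKM (reads per kilobase of transcript, scaled to sequencing depth), in which the authors had merged both libraries. No value therefore carries a spread between embryos, and no test of a difference was possible. From these values, the 2 libraries' read counts multiplied together could be recovered, and the reads given here are the square root of that product, the geometric mean of both libraries. The implied depth was 2.23e+07 reads per library in MD43 and 1.61e+07 in WT. The error given after a log2 value is the smallest standard error that counting reads allows, and it leaves out the variation between embryos. Smchd1, the gene that carries the mutation, was listed at 3.30 log2 RPKM in MD43 and 3.31 in WT. The 10 facial mesenchyme markers all had at least 10 reads, with a median level of 3.96 log2 RPKM in WT and 3.81 in MD43, and so did all 11 neural progenitor markers (5.21 and 5.09), so markers of neural tissue were present beside those of facial mesenchyme.

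On chromosome 9 of GRCm38, Zic1 (ENSMUSG00000032368, 91358058 to 91365810, minus strand) and Zic4 (ENSMUSG00000036972, 91362413 to 91389348, plus strand) overlapped by 3398 bp in the table. Only 1 of the 12 annotated Zic4 transcripts had an exon that overlapped Zic1 exons, over 60 bp. The strand setting of the read counting is not given in the sources used here, so reads from those 60 bp may have been counted for either gene. On chromosome 14, Zic5 (ENSMUSG00000041703, 122456795 to 122465677, minus strand) and Zic2 (ENSMUSG00000061524, 122475435 to 122479852, plus strand) were separated by 9757 bp. All 4 are protein coding.

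The start regions of Zic1, Zic4 and Zic5 are shown because the members of a pair are transcribed from divergent starts. The start region of Zic2 was not analysed here. The sequences are from RefSeq (GRCm38.p6) and run from 250 bases before to 50 bases after the start, 5′ to 3′ on the strand of the gene, and capitals mark CCAAT.
Zic1, chr9:91365719-91366018, minus strand: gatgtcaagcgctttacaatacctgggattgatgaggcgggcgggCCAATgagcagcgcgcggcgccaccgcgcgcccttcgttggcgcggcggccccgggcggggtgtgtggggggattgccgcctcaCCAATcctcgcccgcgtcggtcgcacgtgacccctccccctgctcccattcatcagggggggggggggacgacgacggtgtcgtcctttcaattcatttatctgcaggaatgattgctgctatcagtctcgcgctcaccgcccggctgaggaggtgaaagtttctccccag
Zic4, chr9:91368722-91369021, plus strand: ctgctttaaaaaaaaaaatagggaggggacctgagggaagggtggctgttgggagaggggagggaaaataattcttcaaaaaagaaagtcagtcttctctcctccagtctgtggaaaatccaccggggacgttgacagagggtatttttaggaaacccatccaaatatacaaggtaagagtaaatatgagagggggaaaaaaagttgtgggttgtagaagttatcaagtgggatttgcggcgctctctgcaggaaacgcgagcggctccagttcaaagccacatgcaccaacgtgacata
Zic5, chr14:122465609-122465908, minus strand: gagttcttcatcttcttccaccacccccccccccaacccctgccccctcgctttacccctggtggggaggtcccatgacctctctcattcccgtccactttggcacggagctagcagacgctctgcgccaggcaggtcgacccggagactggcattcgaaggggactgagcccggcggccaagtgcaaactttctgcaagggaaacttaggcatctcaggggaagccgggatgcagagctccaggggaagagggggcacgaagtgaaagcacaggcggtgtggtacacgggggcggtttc

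The Zic1 and Zic4 starts in RefSeq lay 3204 bp apart. The Zic1 start region held CCAAT at 2 places, 205 and 121 bases before the start, against 0 in the regions of Zic4 and Zic5. CCAAT was found on either strand in 37.4% of 32851 promoters of 300 bases. None of the 3 regions held TATAAA (13.6% of promoters), CCTGCTG, used here as the core of a Zic site (3454 of the 32851 promoters), or TGGGTGGTC, a Gli site (0.253%), on either strand. No motif searched lies within another. The Zic1 region was rich in G and C (65.3%, with 31 CpG), the Zic5 region less so (62.7%, 15 CpG), and the Zic4 region was below the median promoter in GC content (46.0% against 52.7%) with 8 CpG against a median of 7.

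All 4 Zic genes were lower in MD43 than in WT FNPs, with log2 differences from -0.66 to -1.14. Their summed level was 37.4 RPKM in MD43 and 67.4 RPKM in WT, so that the MD43 sum was 55.4% of the WT sum. Zic1 and Zic2, the most abundant members, differed by almost the same amount. Zic4 differed most and Zic5 least.

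Zic1, which acts in the cerebellum, the neural crest and the dorsal neural tube, was listed at 5.16 log2 RPKM in WT and 4.32 in MD43, from 3268 and 2532 reads. The difference was -0.84 ± 0.03, a level 1.79-fold lower in MD43. Zic2, the holoprosencephaly gene, was listed at 4.29 log2 RPKM in WT and 3.45 in MD43, from 908 and 700.5 reads. Its difference was -0.85 ± 0.05, or 1.80-fold lower. Zic4, the divergent neighbour of Zic1, was listed at 2.61 log2 RPKM in WT and 1.47 in MD43, from 1013 and 640.4 reads. With a difference of -1.14 ± 0.05 it was 2.20-fold lower and the sole member past 2-fold, which it was not with a pseudocount of 1 RPKM (-0.91). Zic5, the divergent neighbour of Zic2, which acts in neural crest formation, was listed at 2.57 log2 RPKM in WT and 1.91 in MD43, from 466 and 411 reads. Its difference was -0.66 ± 0.07, or 1.57-fold lower. Since MD43 was sequenced more deeply, reads differ less between genotypes than levels do. In a dissected piece, fewer cells expressing a gene and less RNA per cell cannot be told apart.

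**Figure D1:**
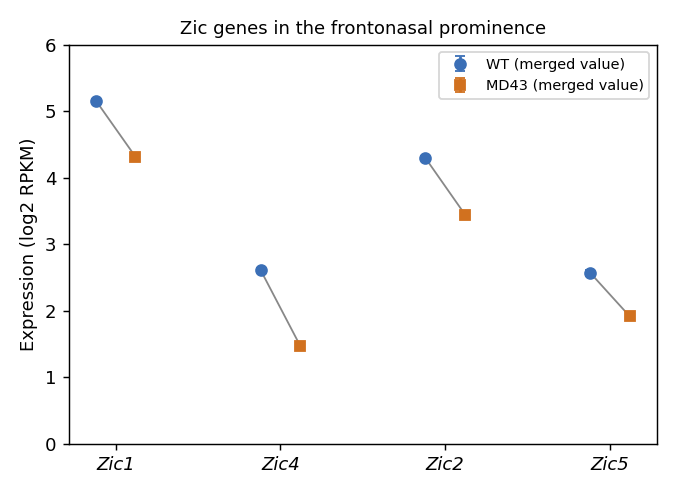
Expression of the 4 Zic genes in log2 RPKM, as the authors' merged value of 2 WT (circles) and 2 MD43 (squares) libraries, with bars for the smallest counting error, which are smaller than the symbols. Every MD43 value lies below its WT value, from 5.16 against 4.32 for Zic1 to 2.57 against 1.91 for Zic5.

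Differences of this size were rare among genes with as many reads. All 4 members were at least 1.5-fold lower in MD43, against 1.78% (191) of the 10757 genes that had 100 reads or more in each genotype. Of these genes, 0.576% were at least 1.5-fold higher, and 47.2% were lower by any amount. With a pseudocount of 1 RPKM added to each level, Zic5 differed by -0.54 and was no longer past 1.5-fold. For a 2-fold minimum the background was 0.372% lower and 0.0651% higher. Of the 10757 genes, 26 had a lower difference than Zic4, 64 than Zic2, 65 than Zic1 and 134 than Zic5. The median difference of these genes was 0.013. Each member lay more than 4 counting errors from 0, but so did 28.0% of these genes, so this measure alone did not set the members apart.

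**Figure D2:**
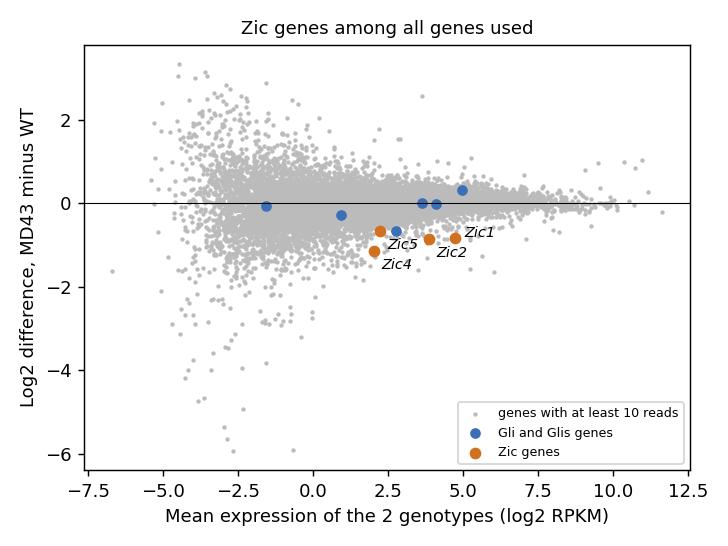
Log2 difference (MD43 minus WT) against the mean log2 RPKM of both genotypes for the 15377 genes that reached 10 reads in WT or MD43 (grey), with the 4 Zic genes (orange) and the 6 Gli and Glis genes (blue). The Zic genes lie at -0.66 to -1.14, on the lower side of the genes of similar level, some of which lie lower still.

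The order of the levels was the same in both genotypes for the upper members and not for the lower. In WT, Zic1 had 35.8 RPKM, Zic2 19.6, Zic4 6.11 and Zic5 5.93, and the 0.04 ± 0.06 between Zic4 and Zic5 on the log2 scale was within counting error. In MD43, Zic1 had 19.9 RPKM, Zic2 10.9, Zic5 3.77 and Zic4 2.78, with Zic4 below Zic5 by a log2 ratio of -0.44 ± 0.06. Zic1 made up 53.0% of the summed Zic level in WT and 53.3% in MD43, and Zic2 29.1% and 29.2%. The share of Zic4 was 9.06% in WT and 7.43% in MD43, and that of Zic5 was 8.80% and 10.1%. Levels of different genes depend on the transcript length used, and the merged exons of Zic4 (10335 bases over 12 transcripts) are far longer than those of Zic2 (2880 bases).

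Within the divergent pairs, the partners differed between the genotypes by unequal amounts. Zic1 exceeded Zic4 by 5.85-fold in WT and 7.18-fold in MD43, a change of the log2 ratio of 0.29 ± 0.06, or 0.10 with a pseudocount of 1 RPKM. Zic2 exceeded Zic5 by 3.31-fold in WT and 2.89-fold in MD43, a change of -0.19 ± 0.09. Across the pairs, Zic1 exceeded Zic2 by 1.82-fold in WT and 1.83-fold in MD43, a change of 0.01 ± 0.06 that was within counting error. These ratios within a genotype do not depend on the scaling between genotypes.

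The counts of single libraries could be narrowed for some members, because few pairs of whole numbers give a recovered product. Pairs were allowed a ratio of up to 4-fold. Over genes with 1 such pair, the median ratio of the libraries was 1.52 in MD43 (quartiles 1.40 and 1.69) and 1.43 in WT (1.23 and 1.68), which was taken as their ratio in depth. Which count belongs to which embryo cannot be told.

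For Zic2 the single pair within 4-fold in MD43 was 698 and 703 reads, a ratio of 1.01, and 2 pairs remained within 10-fold. If the first pair holds, the MD43 embryos differed in Zic2 RPM (reads scaled to sequencing depth, as in RPKM but without transcript length) by about their ratio in depth. For Zic5 the single pair within 4-fold in MD43 was 362 and 467 reads (2 pairs within 10-fold), which is between 13.1 and 25.8 RPM over both ways of assigning them. In WT, 3 pairs gave the Zic5 product, 333 and 651, 279 and 777, or 259 and 837 reads, and the WT libraries thus differed by at least 1.95-fold in Zic5 reads. Zic4 had 767 and 1339 reads in the WT libraries, a ratio of 1.75 and between 39.9 and 99.8 RPM, while 7 pairs remained for MD43, between 13.7 and 60.0 RPM. For Zic1, 15 pairs remained in MD43 and 10 in WT. For none of the 4 members did every pair and assignment place both MD43 libraries below both WT libraries, so whether the embryos of the genotypes overlapped could not be told for any of them.

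The neighbours of the Zic genes were examined because the 2 loci are rich in non-coding transcripts. Of the 13 rows within 100 kb of a member, 7 had at least 10 reads in a genotype and recovered reads. Of these, 6 were at least 1.5-fold lower in MD43 (background 6.43% of the 15377 genes that reached 10 reads in WT or MD43) and 5 were at least 2-fold lower (background 2.47%). One of them, Gm37457, reached 10 reads in WT alone, where it was high, so the filter favoured it. Of the 6 neighbours with 10 reads in each genotype, 5 were at least 1.5-fold lower (background 5.51%) and 4 at least 2-fold lower (background 1.62%).

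Of the 7 neighbours, the 4 around Zic1 and Zic4 were all at least 2-fold lower (background 2.47%). One of these 4 was Gm37457, which passed the read filter through WT alone. Gm37040, Gm37477 and Gm29478 reached 10 reads in both genotypes (background 1.62%). GENCODE lists 3 of the 4 as TEC, a locus not yet settled by experiment, and Gm29478 as a lincRNA. Gm37477 (91380519 to 91381402, minus strand) lies inside Zic4 on the other strand and overlaps Zic4 exons by 468 bp, so it may share reads with Zic4. It had 54.0 reads in WT and 31.4 in MD43, a difference of -1.26 ± 0.23. Gm29478, a long non-coding RNA that starts 15126 bp beyond Zic4, had a difference of -1.46 ± 0.37. It had 13 and 41 reads in the WT libraries. Its single pair within 4-fold in MD43 was 8 and 17 reads, and 2 pairs remained within 10-fold. The WT libraries thus differed by 3.15-fold in its reads, and the WT and MD43 values overlapped in some assignments.

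Gm37040, 20991 bp from Zic1, had 24.2 reads in WT and 13.0 in MD43, a difference of -1.38 ± 0.35. Gm37457, 30210 bp from Zic1, had 25 and 49 reads in the WT libraries, or 35 in each, and 4 and 11 in the MD43 libraries, a difference of -2.88 ± 0.43. A730094K22Rik, 7105 bp from Zic1, had 8.49 reads in WT and none in either MD43 library, and was at least 3.93-fold lower when each MD43 library was set to 3 reads. It is not among the 7 neighbours counted. Nor are Gm37812, Gm28652 and Gm10837, which had at most 2.51 reads in a genotype.

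Around Zic2 and Zic5, the non-coding transcript 2610035F20Rik (122470284 to 122475199, minus strand) lies between the pair and begins 235 bp from the Zic2 start, in the divergent direction. Its difference was -1.57 ± 0.19, or 2.97-fold lower. The single pairs within 4-fold were 58 and 145 reads in WT and 41 and 45 in MD43, and 2 pairs remained in each genotype within 10-fold. In RPM, the single pairs were between 3.02 and 10.8 in WT and between 1.49 and 2.49 in MD43 over both assignments. With them the genotypes did not overlap, but they could when library ratios of up to 10-fold were allowed. Over the 4 members and 7 neighbours, the genotypes failed to overlap in every pair and assignment for 2 of 11 genes, 2610035F20Rik and Gm37457, where the background was 0.53% of the 14143 genes with a pair of counts in both genotypes. Without Gm37457, which reached 10 reads in WT alone, it was 1 of 10 genes. The background over genes with 10 reads in both genotypes is not given for this count.

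The protein-coding neighbours were less alike. Clybl, a mitochondrial lyase gene 54561 bp from Zic5, had 577 reads in WT and 413 in MD43, a difference of -0.96 ± 0.07, but its WT libraries had 302 and 1103 reads, a ratio of 3.65. Pcca, which encodes a subunit of propionyl-CoA carboxylase and lies 54472 bp beyond Zic2, was listed 0.13 ± 0.06 higher in MD43. Of 2 rows named Gm5089, the one 5680 bp from Zic5 was listed at -1.20 log2 RPKM in WT and -4.64 in MD43, and its reads could not be recovered. The other had 5.48 reads in each genotype.

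**Figure D3:**
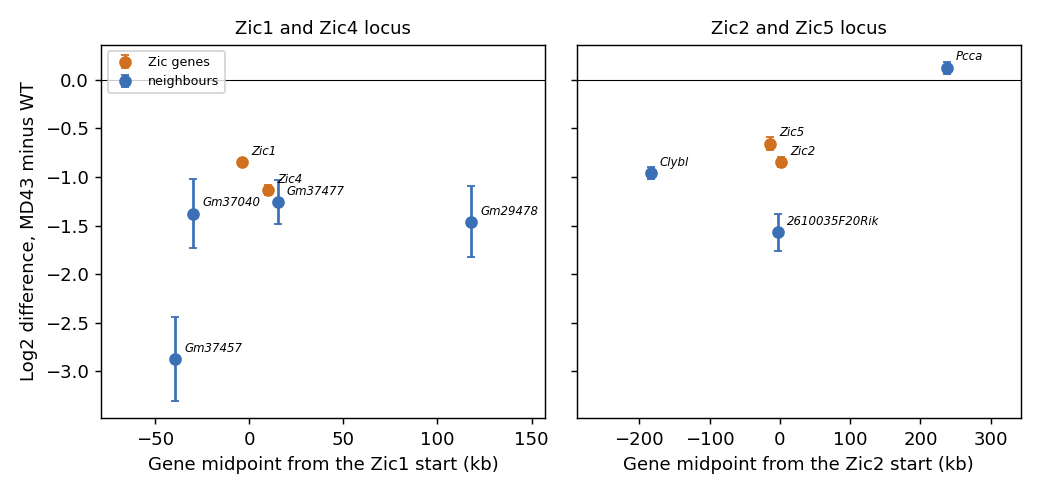
Log2 difference (MD43 minus WT) of the Zic genes (orange) and of their neighbours within 100 kb with at least 10 reads in a genotype (blue), against the distance of the gene midpoint from the Zic1 start (left) or the Zic2 start (right) in kb, with bars for the smallest counting error. All points but Pcca lie below 0.

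The Gli and Glis genes encode the zinc finger proteins most related to Zic. Of the 6 Gli and Glis genes, 5 were lower (background 48.8%), but Gli2, Glis1 and Glis2 by less than their counting error. Of the 6, 1 was at least 1.5-fold lower (background 6.43%) and none was at least 1.5-fold higher (background 4.24%). Their median difference was -0.05, against 0.0057 over the 15377 genes used. Gli1, a target of Hedgehog signalling, was listed at 3.09 log2 RPKM in WT and 2.43 in MD43, a difference of -0.66 ± 0.06. Gli2, the main activator of the pathway, differed by 0.00 ± 0.04 and Gli3, its main repressor, by 0.32 ± 0.02. Glis1 differed by -0.08 ± 0.30, Glis2 by -0.01 ± 0.04 and Glis3 by -0.28 ± 0.08.

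Genes that share the holoprosencephaly phenotype with Zic2 differed in both directions. Of the 15 listed, 13 had at least 10 reads, and their median difference was -0.01, with 7 lower (background 48.8%) and 6 higher. None was at least 1.5-fold lower (background 6.43%) and 1, Nodal, was at least 1.5-fold higher (background 4.24%). Ptch1, the Hedgehog receptor, differed by -0.53 ± 0.03, Shh, the ligand, by -0.34 ± 0.09 and Boc, a co-receptor, by 0.41 ± 0.04. Nodal differed by 0.91 ± 0.61 on 10.2 reads in MD43 and 3.91 in WT. It reached 10 reads in MD43 alone, where it was high, so the filter favoured it.

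Genes of the dorsal midline and roof plate, where Zic genes are expressed in the neural tube, were mostly lower in MD43. Of 12 listed, 10 had at least 10 reads, with 8 lower (background 48.8%), 2 higher and a median difference of -0.50, and 4 were at least 1.5-fold lower (background 6.43%). Rspo3, which amplifies Wnt signalling, had 975 reads in WT and 444 in MD43, a difference of -1.61 ± 0.06. The Wnt ligands Wnt3 and Wnt2b differed by -1.48 ± 0.16 and -1.19 ± 0.32, and the roof plate factor Lmx1b by -0.73 ± 0.09. The summed level of the list was 98.7 RPKM in WT and 81.1 RPKM in MD43. Of these sums, Rspo3 gave 19.7 RPKM in WT and 6.44 RPKM in MD43.

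Markers of the tissues in the dissected piece differed between the genotypes in both directions, and their part in the Zic differences was not tested. The neural progenitor list had a median difference of -0.13, with 6 of 11 markers lower (background 48.8%). The differences ran from -0.89 ± 0.05 for Fabp7 and -0.62 ± 0.03 for Otx2 to 0.49 ± 0.02 for Lhx2, with Pax6 at -0.35 ± 0.03. The summed level of the list was 453 RPKM in WT and 428 RPKM in MD43. The diencephalon and optic vesicle list was lower for 10 of 10 genes (background 48.8%), with a median of -0.84 and summed levels of 35.6 RPKM in WT and 25.1 RPKM in MD43. Its largest differences were those of Rax, an eye field factor (-2.17 ± 0.24), Otp (-1.57 ± 0.31), Sim1 (-1.48 ± 0.33) and Dbx1 (-1.40 ± 0.15).

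Facial mesenchyme genes had a median difference of -0.14, with 6 of 10 genes lower (background 48.8%). Their summed levels were 182 RPKM in WT and 178 RPKM in MD43. Twist1, Pdgfra and Prrx1 differed by -0.39 ± 0.05, -0.33 ± 0.05 and -0.29 ± 0.03. The periocular mesenchyme list had a median of -0.17, with 3 of 5 genes lower (background 48.8%) and 13.5 RPKM in WT and 11.6 RPKM in MD43. In it, Foxl2 differed by -1.32 ± 0.21, Foxc1 by -0.54 ± 0.07 and Foxf2 by -0.17 ± 0.14.

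Of the 15377 genes used, 7870 were higher in MD43. The surface ectoderm list was higher in MD43 for 9 of 10 genes, with a median of 0.60 and summed levels of 135 RPKM in WT and 209 RPKM in MD43. Its epithelial genes Cldn6, Cdh1, Krt8 and Grhl2 differed by 0.87 ± 0.05, 0.73 ± 0.05, 0.70 ± 0.04 and 0.68 ± 0.06. The red blood cell list was higher for 8 of 8 genes, with a median of 0.86 and summed levels of 3168 RPKM in WT and 6013 RPKM in MD43. Slc4a1 differed by 1.52 ± 0.08, the embryonic globin Hbb-bh1 by 1.04 ± 0.01 and Klf1 by 0.88 ± 0.19, and the 2.57 ± 0.15 of Hba-a2 is uncertain because it shares reads with its near-identical copy Hba-a1. The endothelium list had a median of -0.03, with 4 of 6 genes lower (background 48.8%) and summed levels of 9.08 RPKM in WT and 8.76 RPKM in MD43. Its differences ran from -0.33 ± 0.08 for Kdr to 0.23 ± 0.13 for Tie1, with Pecam1 at -0.17 ± 0.13 and Tek at 0.15 ± 0.15.

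The median difference of the Zic genes (-0.85) lay near that of the diencephalon and optic vesicle list (-0.84), but the latter was -0.45 for its members with at least 50 reads, a number that every Zic gene exceeds, and -0.36 with a pseudocount of 1 RPKM. The Zic median lay below those of the neural progenitor (-0.13) and facial mesenchyme (-0.14) lists, and on the other side of 0 from the surface ectoderm and red blood cell lists. Whether the Zic genes differ from any of these lists was not tested.

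**Figure D4:**
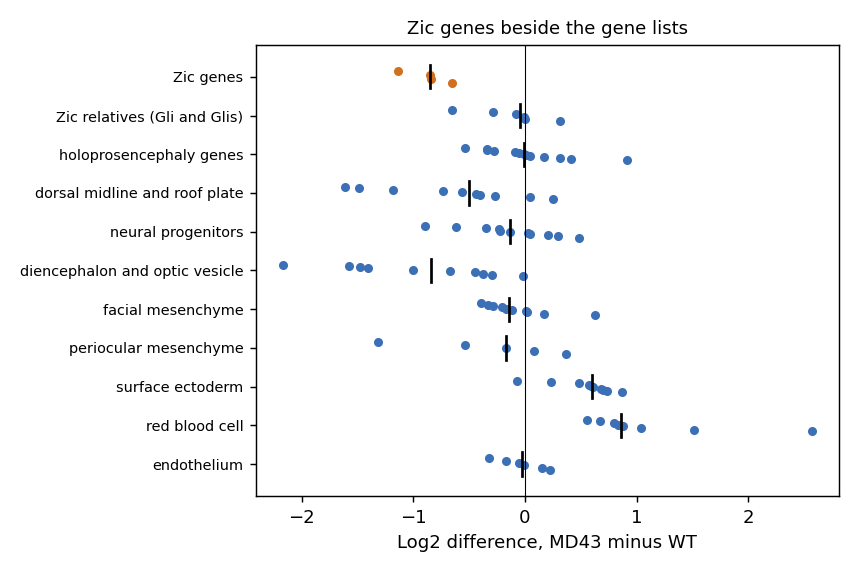
Log2 differences (MD43 minus WT) of the 4 Zic genes (orange) and of the members of 10 gene lists with at least 10 reads in a genotype (blue), 1 point per gene, with the median of each list as a black line. The Zic median is -0.85, and the diencephalon and optic vesicle median is -0.84, or -0.45 without its genes under 50 reads.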

How the data were processed

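The FNPs of 2 WT and 2 MD43 embryos were dissected by the study, and 100 ng of total RNA per embryo went into stranded mRNA libraries, per the labels. Groups were taken from the genotype labels. Per the submitters' processing notes and the study's methods, reads were trimmed with Trim Galore 0.4.4, mapped with HISAT2 2.0.5 to GRCm38.p6 and quantified with SeqMonk. The deposited values used here are log2 RPKM, which the authors scaled to reads sequenced and to length, and merged into 1 column per genotype. The authors' deposited FDR (a p-value adjusted for multiple tests), log fold change and average columns were not used.

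Rows were joined to GENCODE M21 on symbol, chromosome, start and end, and 33101 of 33708 matched. Genes without reads share 1 difference (12862 rows). Taking them as 0.9 reads in each library gave the product of the 2 counts of every gene, and 99.9% of the 19839 MD43 and of the 20250 WT small products fell within 0.02 of a value that whole reads allow. The genes without reads are among these products and fit by construction, and the share without them is not given. Of products from 20000 to 400000, 99.4% in each genotype had a pair of whole factors within 4-fold, against 28.5% (MD43) and 27.6% (WT) of the next whole numbers. For products from 400000 to 1100000, which include those of Zic2 in MD43 and Zic4 in WT, the shares were 98.8% (MD43) and 97.9% (WT), against 31.9% and 32.1% of products shifted by 2. The library depths per genotype are the geometric mean of 2 libraries. The recovery was tested on simulated data. The use of factor pairs was chosen after the data were seen.

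No test was run, since the table holds no values per library. Fold thresholds of 1.5 and 2 were used as descriptions. The named genes are the 4 members, Smchd1, each row within 100 kb of a member, the Gli and Glis genes and up to 4 genes of each other list with the largest difference, and those given for lists are thus chosen by size. Some genes that this rule names are not reported here. The members and the 10 lists were chosen with earlier results of these data known. Alternatives were pseudocounts, centring, a correction for GC content and length, other filters and a wider window. Analyses used Python 3.11.15, numpy 2.4.6 and pandas 2.3.3.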

Additional observations from a re-analysis of the deposited data

How the results depend on the processing

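The Zic differences kept their direction under all 5 alternatives run on each, between -1.15 and -0.54, and 18 of the 20 values stayed within the interval of the counting error. Of the others, Zic1 was -0.79 once corrected for GC content and length, and Zic4 was -0.91 with a pseudocount of 1 RPKM, which shrinks changes of low genes by construction. That pseudocount ended the 2-fold call of Zic4 and, at -0.54, the 1.5-fold call of Zic5. With that pseudocount the change of the log2 ratio of Zic1 to Zic4 was 0.10 in place of 0.29. The centring moved values by at most 0.013, and directions that so small a shift keeps are no test of robustness. Of 40 alternatives for the list medians, 38 stayed within the counting interval. The diencephalon and optic vesicle median was -0.45 for members with at least 50 reads and -0.36 with a pseudocount of 1 RPKM, as its largest differences were in genes of few reads. A window of 500 kb contains that of 100 kb, so its count could not fall, and it added no neighbour at least 1.5-fold lower. Of the 14 neighbours used in it, 3 were higher and 6 were at least 1.5-fold lower (background 6.43%). Among alternatives chosen after seeing the data, a minimum of 10 reads in both genotypes left 5 such neighbours of 6, libraries within 3-fold left 2 genes without overlap between the genotypes and libraries within 10-fold left 1, Gm37457. No paired analysis was possible because each genotype has 1 merged value, and for the same reason no replicate could be left out. Whether 1 embryo decides a Zic difference is therefore unknown, and depth limits the neighbours with fewer than 50 reads.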
